A study of Mus musculus with 3 samples.

Results

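RNA-seq counts of c2c12 cells, a mouse myoblast line that fuses into multinucleated myotubes, were examined for a set of long noncoding RNAs of the nucleus and of imprinted loci. The set holds 8 genes, namely Malat1, Neat1, Meg3, Rian, Mirg, H19, Rn45s and Dlk1, out of 23238 gene symbols in the count files. They were chosen from their measured values in these same 3 libraries and from what is known of them, so their differences between substrates are given as a description and support nothing by themselves. Of the 8 genes, 7 have a row in the files. Mirg was not analysed here. A level of at least 1 CPM, the counts scaled to library size, in 1 or more libraries was reached by 5 of them (Malat1, Neat1, Meg3, H19 and Rn45s), as by 13169 symbols in all, whereas Rian and Dlk1 stayed under it.

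All cells were c2c12 myoblasts in myogenic induction medium for 2 days. They were kept on a tissue culture plate (TCP), on a hydrogel of methacrylated gelatin (GelMA), or on GelMA-PSS, which combines 15% GelMA with 1% of the sulfonated polymer poly sodium 4-styrenesulfonate. The study compares the GelMA-PSS surface, which mimics heparin, with both controls, and c2c12 cells are an immortalized line that stands in for muscle precursors. Each substrate has 1 library. A difference between substrates therefore has no replicate to check it against, and no p-value is given. The TCP library held 119799095 counts, the GelMA library 87071144 and the GelMA-PSS library 192171443. In this order, 3 counts, taken as the floor of detection, equal a CPM of 0.0246, 0.0330 and 0.0166. All 10 markers of myoblasts and myotubes that were looked up passed the filter, with a summed CPM of 29144 on TCP, 21314 on GelMA and 19002 on GelMA-PSS. Without Myh3, the embryonic myosin heavy chain (10181.6, 6355.5 and 3036.5), the sums were 18962, 14959 and 15966. Single markers went both ways. Myod1 (94.3, 104.6 and 119.2) and Myf5 (13.9, 19.5 and 36.5) were highest on GelMA-PSS, while Ckm, Acta1 and Mymk were, like Myh3, lowest there. Of the markers of other cells, 0 of 6 for adipocytes, 0 of 5 for endothelium, 1 of 5 for blood and 1 of 5 for neural cells passed it, and the blood and neural lists summed to a CPM of 1.42 to 4.14 in each library. In bulk RNA, fewer cells of a type and less RNA per cell cannot be told apart.

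Long noncoding RNAs are transcribed and often spliced like messenger RNAs but encode no protein, and many stay in the nucleus. Malat1 gathers in nuclear speckles, bodies rich in splicing factors, while Neat1, transcribed from the adjacent gene, is the scaffold around which paraspeckles assemble. H19 and Meg3 come from imprinted loci, where only the maternal copy makes the noncoding RNA and the paternal copy expresses a partner such as Igf2, a growth factor, or Dlk1, a membrane protein related to the ligands of Notch. Rn45s stands for the 45S precursor of ribosomal RNA, which RNA polymerase I makes in the nucleolus.

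On GRCm38, Malat1 lies at chr19:5795690-5802672 on the minus strand and Neat1 at chr19:5824708-5845478 on the same strand, with 22035 bases between them. Both are annotated as lincRNAs with a main transcript of 1 exon, of 6983 bases for Malat1 and 20771 bases for Neat1. Malat1 is not polyadenylated in the usual way. Its 3′ end follows a run of A encoded in the genome, and the enzyme RNase P releases a small RNA shaped like a tRNA just downstream. The stretch, in which the cut site is not marked, spans the 3′ end of Malat1. It is shown because Malat1 is the RNA of the set with the largest change. It is taken from the reference transcript at chr19:5795958-5796029 (minus strand, 5′ to 3′), with the run of 12 A, bases 6674 to 6685 of the transcript, in capitals.

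Malat1 A run: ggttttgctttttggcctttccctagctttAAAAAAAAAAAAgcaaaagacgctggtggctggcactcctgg

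H19 lies at chr7:142575529-142578143 on the minus strand and is a lincRNA with a longest annotated transcript of 2286 bases in 5 exons. Exon 1 of that transcript (chr7:142576829-142578143) holds the hairpin Mir675, the source of a pair of mature miRNAs. They are shown because they are the known processed product of H19, the symbol with the most counts in these libraries, and they were not measured here. The sequences are from RefSeq (GRCm38.p6, minus strand), with the seed, bases 2 to 8, in capitals. The arms are 22 bases each and do not share a seed.

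mmu-miR-675-5p at chr7:142577112-142577133: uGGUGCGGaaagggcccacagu
mmu-miR-675-3p at chr7:142577078-142577099: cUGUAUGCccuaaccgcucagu

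Malat1 was lowest on GelMA-PSS and highest on GelMA. It had 67822 counts on TCP, 122169 on GelMA and 33598 on GelMA-PSS, although the GelMA-PSS library was the deepest and the GelMA library the shallowest. Scaled to CPM with TMM factors, which correct for differences in composition between libraries, the values were 557.0, 1344.4 and 185.5. The exact Poisson intervals at 95% were 552.8 to 561.2 for TCP, 1336.8 to 1351.9 for GelMA and 183.5 to 187.5 for GelMA-PSS. These intervals cover counting error only, not the spread between cultures, and they would be wider if each read pair gave 2 counts, a point the sources used here do not state. The CPM of Malat1 was 7.25-fold lower on GelMA-PSS than on GelMA, 3.00-fold lower than on TCP, and 2.41-fold higher on GelMA than on TCP.

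On the scale of log2(CPM + 1), which is used for all ratios here and understates the change of low genes, the difference of Malat1 was -2.85 for GelMA-PSS against GelMA, -1.58 for GelMA-PSS against TCP and 1.27 for GelMA against TCP. Counted from the lowest of the 13169 genes, the first value was in place 3 and the second in place 59. The difference between the 2 controls was in place 37 from the highest. By level, Malat1 ranked 60 among all symbols on GelMA, 228 on TCP and 965 on GelMA-PSS. Of the 5 tested genes of the set, 2 passed 2-fold downwards in GelMA-PSS against GelMA, beside 2.33% of all tested genes. The same 2, Malat1 and Rn45s, passed it against TCP, beside 3.13% of all genes. Malat1 was the 1 gene of the set that was 2-fold higher on GelMA than on TCP, beside 0.706% of all genes. Against both controls 2 of the 5 were lower, beside 1.16% of all genes, and 0 were higher, beside 1.37%. Because the genes were chosen on these contrasts, nothing is read from the counts.

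Neat1, the neighbour of Malat1, differed by less than 2-fold in each comparison. Its counts were 25849 on TCP, 23667 on GelMA and 34335 on GelMA-PSS, or a CPM of 212.3, 260.4 and 189.5. Before any correction for length, the order of the libraries was that of Malat1, with GelMA highest and GelMA-PSS lowest, an order found for 2394 of the 13169 genes (18.2%). The log2 differences of Neat1 were -0.46 for GelMA-PSS against GelMA, -0.16 for GelMA-PSS against TCP and 0.29 between GelMA and TCP, and the GelMA-PSS ones turned positive when transcript length and GC content were corrected for.

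The ratio of both RNAs within a library does not depend on how libraries are scaled. It does carry the trend with transcript length given below, since the 2 RNAs differ in length. For each count of Neat1 there were 2.62 counts of Malat1 on TCP, 5.16 on GelMA and 0.979 on GelMA-PSS. Per kilobase of the main transcripts, Malat1 stood at a CPM of 79.8, 192 and 26.6 in the same order and Neat1 at 10.2, 12.5 and 9.13. The values of Neat1 rest on its longest form of 20771 bases. A form of 3004 bases is also annotated, and the share of each form was not measured. Which of the 2 RNAs was the more abundant by length is therefore not settled by these values.

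H19 was the symbol with the most counts in all 3 libraries. It had 1868511 counts on TCP, 1338220 on GelMA and 3326669 on GelMA-PSS, which is 1.56%, 1.54% and 1.73% of all counts. The CPM was 15345 on TCP, 14726 on GelMA and 18364 on GelMA-PSS. GelMA-PSS was the highest of the 3 by 0.32 on the log2 scale against GelMA and by 0.26 against TCP, and GelMA and TCP differed by -0.06. Counted from the highest, H19 was in places 3490 and 4146 of 13169 in the GelMA-PSS comparisons.

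Igf2, the paternally expressed growth factor whose gene lies 72.6 kb from H19, had 22601 counts on TCP, 19979 on GelMA and 40685 on GelMA-PSS. Its CPM was 185.6, 219.9 and 224.6. There were 82.7 counts of H19 for each count of Igf2 on TCP, 67.0 on GelMA and 81.8 on GelMA-PSS. The GelMA library thus had the lowest ratio of H19 to Igf2, and the ratios of the other 2 libraries differed by less than 1. Ins2, the insulin gene beside Igf2, had a CPM of 4.72, 3.93 and 7.60, with log2 differences of 0.80 against GelMA and 0.59 against TCP. Igf2os, an antisense RNA of Igf2, had 60, 108 and 133 counts, and its reads cannot be told apart from those of Igf2 unless strand was used in counting, which is not stated for these files.

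Rn45s had 190545 counts on TCP, 206798 on GelMA and 115618 on GelMA-PSS, which is 0.159%, 0.238% and 0.0602% of all counts. The CPM was 1565 on TCP, 2276 on GelMA and 638.2 on GelMA-PSS. Like Malat1, it was lowest on GelMA-PSS, by -1.83 on the log2 scale against GelMA (3.57-fold) and by -1.29 against TCP (2.45-fold), with 0.54 between GelMA and TCP. Rn45s was in place 18 from the lowest of 13169 in the first comparison and in place 148 in the second. Malat1 and Rn45s did not keep a fixed ratio. There were 0.356 counts of Malat1 per count of Rn45s on TCP, 0.591 on GelMA and 0.291 on GelMA-PSS. Ribosomal RNA is encoded by many near-identical copies, so the count depends on how reads with several matches were treated, and mRNA kits are meant to leave such RNA out. The share of ribosomal RNA carried through a kit and the amount in the cells cannot be told apart. Rn45s is named only, without a position, since the annotation used here holds no gene of this name.

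**Figure D1:**
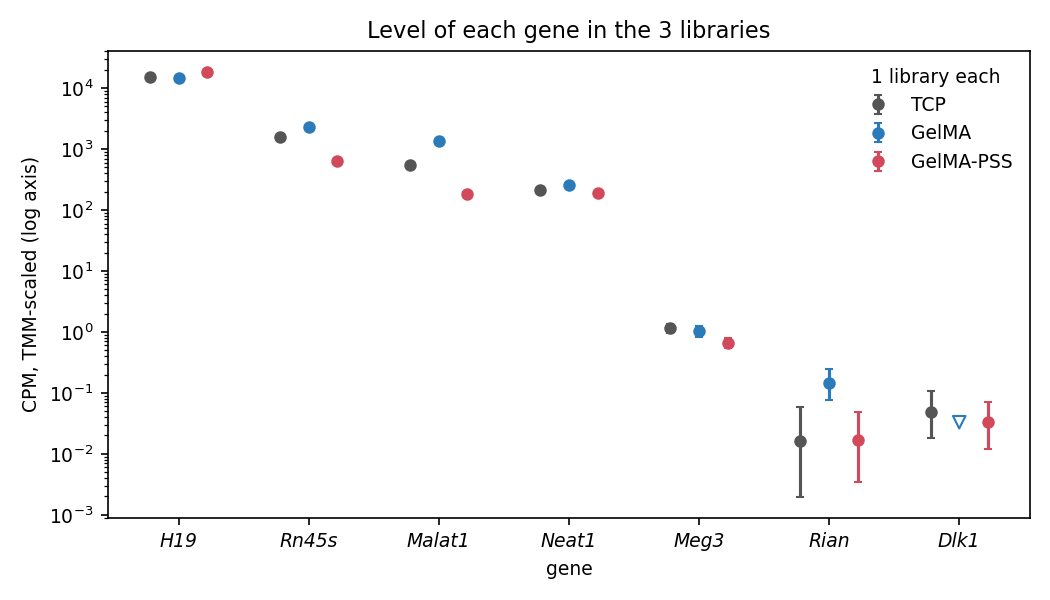
CPM (TMM-scaled, log axis) of the 7 genes with a row, in the TCP, GelMA and GelMA-PSS libraries; points are 1 library each, bars are exact Poisson intervals at 95%, and the open triangle marks the CPM of 3 counts where Dlk1 had 0 counts. Malat1 and Rn45s are lowest on GelMA-PSS and highest on GelMA, while Neat1 and H19 stay within 2-fold.

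The genes of the Dlk1-Dio3 domain on chromosome 12 had few counts or none. Meg3 (chr12:109541001-109571726, plus strand), the maternally expressed RNA known as a growth suppressor, had 141 counts on TCP, 94 on GelMA and 119 on GelMA-PSS. The CPM was 1.16, 1.03 and 0.657, with intervals of 0.975 to 1.37, 0.836 to 1.27 and 0.544 to 0.786. On the log2 scale Meg3 differed by -0.30 against GelMA and by -0.38 against TCP, under 2-fold in both, and both signs turned with the same correction.

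Rian (chr12:109603940-109661716, plus strand), an RNA that hosts small nucleolar RNAs, had 2 counts on TCP, 13 on GelMA and 3 on GelMA-PSS. With TCP and GelMA-PSS at or under the floor of 3 counts, no fold is given. The exact intervals of the CPM of Rian were 0.0020 to 0.0593 on TCP, 0.0762 to 0.245 on GelMA and 0.0034 to 0.0484 on GelMA-PSS. The GelMA interval lay above those of TCP and GelMA-PSS, but they cover counting error only, with 1 library each. Dlk1 (chr12:109452823-109463336, plus strand), the paternally expressed gene of the domain, lies 77.7 kb before Meg3 and had 6, 0 and 6 counts. The CPM was 0.0493 on TCP and 0.0331 on GelMA-PSS. The 0 on GelMA is under the floor of 0.0330, and its exact interval reaches 0.0406, within the intervals of the other 2 libraries (0.0181 to 0.107 and 0.0122 to 0.0721), so no difference was detectable at this depth. Of the 16 symbols from Begain to Dio3, 10 had no counts on TCP, 11 on GelMA and 10 on GelMA-PSS, and 4, 3 and 3 had more than 3 counts. Many of the symbols without counts are very short or of unknown length. AF357425 and DQ267101, the latter with 1 count on GelMA, are annotated at 73 bases, and DQ267100 and DQ267102 at 72. AF357426, AF357359 and AF357355 have no annotated length. Whether these libraries capture RNAs this short was not tested, so for such symbols the tally says nothing about their level. Rtl1, a gene derived from a retrotransposon, had 3, 3 and 1 counts. Dio3, the enzyme that inactivates thyroid hormone, had 0 in every library. Begain had 43, 26 and 40 counts. Meg3 was the most counted RNA of the domain in each library. Per kilobase of transcript it had a CPM of 0.0796, 0.0711 and 0.0452, against 6713, 6442 and 8033 for H19, the RNA of the other imprinted locus. These values rest on the longest form of each, 14548 bases for Meg3 and 2286 for H19, and shorter forms of both are annotated.

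The other genes at these places were looked at by position, among tested genes up to 5 places away on each side. Around Malat1 and Neat1, 0 of the 9 neighbours shown passed 2-fold in any of the 3 comparisons. Their median log2 difference was 0.13 for GelMA-PSS against GelMA, with a range of -0.68 to 0.50, and 0.25 against TCP, with a range of -0.98 to 0.56. Malat1 lay outside both ranges, at -2.85 and -1.58, and Neat1 within them. Since Malat1 was chosen with its values known, its place outside them is a description only. Of all 13169 tested genes, 233 were higher and 307 lower by 2-fold for GelMA-PSS against GelMA. Against TCP the numbers were 490 and 412, and for GelMA against TCP 93 and 39. With so few, nothing is read from the tallies of neighbours here, or around H19 and Meg3. Frmd8, the nearest tested gene on the Neat1 side, differed by 0.17 and 0.56.

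Around H19, 0 of 10 neighbours passed 2-fold, with medians of 0.18 and 0.19, and H19 was within their ranges of -0.34 to 0.80 and -0.77 to 0.66. Nctc1, a noncoding RNA made beside H19 in muscle, had a CPM of 3.41 on TCP, 2.03 on GelMA and 1.58 on GelMA-PSS. Tnnt3, a fast troponin T of the muscle fibre, had 4152, 2857 and 3117, both being highest on TCP where H19 was not. Around Meg3, 1 of 10 neighbours passed 2-fold in a comparison, Dync1h1, the heavy chain of cytoplasmic dynein, at -1.31 for GelMA-PSS against GelMA and -0.93 against TCP.

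**Figure D2:**
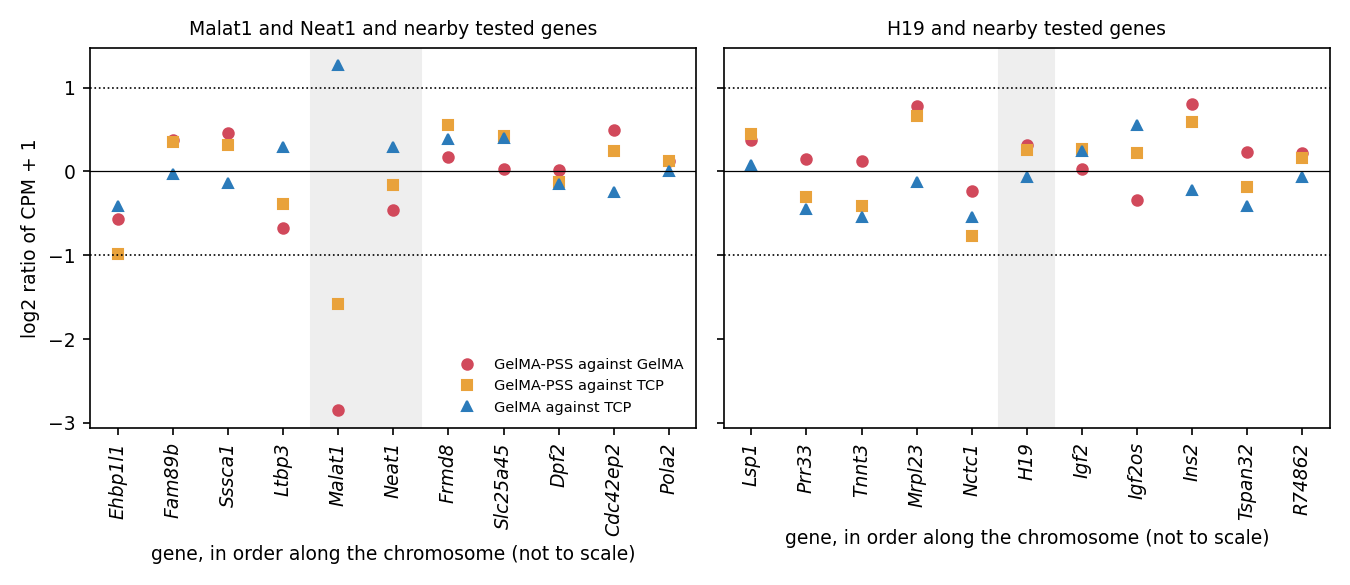
Log2 ratio of CPM + 1 (vertical axis) for Malat1 and Neat1 with 9 neighbours, and for H19 with 10, in order along the chromosome (horizontal axis, not to scale); symbols are the 3 comparisons, grey bands mark the noncoding RNAs named, and dotted lines mark 2-fold. Malat1, chosen with its values known, is beyond the dotted lines at -2.85, -1.58 and 1.27, and the neighbours shown are not.

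Among proteins of the bodies that Malat1 and Neat1 belong to, none passed 2-fold against both controls. Of all tested genes, 1.16% were lower and 1.37% higher than both by 2-fold, so nothing is read from these tallies. Of 38 nuclear speckle proteins, 0 passed. Their medians were 0.00 for GelMA-PSS against GelMA and -0.05 against TCP, beside 0.03 and 0.04 over all tested genes. The largest changes against the nearer control were those of Cdk12, a kinase of RNA polymerase II, at -0.90 against GelMA and -0.82 against TCP, and of Srrm2, a scaffold of speckles, at -1.03 and -0.79, which became -0.55 and -0.55 for Cdk12 and -0.32 and -0.28 for Srrm2 after a correction for transcript length and GC content. Of 38 paraspeckle proteins, 0 passed, with medians of -0.04 and 0.05. Ahdc1 differed by -0.86 and -0.85 (corrected -0.26 and -0.39), and Dazap1, an RNA-binding protein, by 0.98 and 0.78 (corrected 0.85 and 0.69).

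For Rn45s, the list of RNA polymerase I and ribosomal RNA processing held 56 tested genes, and 0 passed 2-fold against both controls. Among all tested genes 1.16% were lower and 1.37% higher, so nothing is read from this 0. The medians of the 56 genes were 0.17 and 0.08. The largest changes were those of Polr2k, a small subunit that RNA polymerases I, II and III share, at 1.04 against GelMA and 0.89 against TCP, and of Nop10, a protein of H/ACA ribonucleoproteins, at 0.74 and 0.78. After the same correction they were 0.21 and 0.17 for Polr2k and 0.17 and 0.31 for Nop10. Of 7 other abundant structured RNAs, 1 passed the filter. Rn4.5s had a CPM of 9.72 on TCP, 10.1 on GelMA and 15.6 on GelMA-PSS and so was highest where Rn45s was lowest. Rmrp, the RNA of RNase MRP, had 66, 62 and 40 counts, and Rpph1, the RNA of RNase P, had 40, 41 and 29.

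In a list of 26 other tested long noncoding RNAs, 0 were higher and 1 was lower than both controls by 2-fold. Among all tested genes 1.37% were higher and 1.16% lower, so nothing is read from these counts. The list is not complete: Xist and 4930470H14Rik, both long noncoding RNAs and both lower than both controls by 2-fold, are not in it (Xist at -2.25 and -1.27, 4930470H14Rik at -3.16 and -1.44). The medians of the list were 0.03 and 0.00, and -0.21 and -0.09 after the correction, beside 0.00 for all genes. The 1 lower was Mhrt, with 13301 counts on TCP, 3671 on GelMA and 3191 on GelMA-PSS. It differed by -1.15 against GelMA and -2.57 against TCP (corrected -1.70 and -3.03). It overlaps Myh7, the slow myosin heavy chain, on the other strand. Myh7 differed by -1.08 and -2.07 (corrected -0.58 and -1.69), and without strand the reads of both cannot be told apart. Mrln, in this list under an older name, is now known to encode a micropeptide.

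Of 34 tested imprinted genes of other loci, 0 passed 2-fold against both controls, with medians of 0.03 and 0.06. Among all tested genes 1.16% were lower and 1.37% higher. Nothing is therefore read from this 0, or from that of the Kcnq1ot1 domain below. Peg3, a zinc finger protein, was at -1.22 against GelMA, past 2-fold, and -0.95 against TCP (corrected -0.59 and -0.50). Igf2r, the receptor that clears Igf2, was at -0.97 and -0.94 (corrected -0.28 and -0.43). In the Kcnq1ot1 domain, which lies on chromosome 7 beyond Igf2, 0 of 8 passed, with medians of -0.16 and -0.32. Kcnq1ot1, the long noncoding RNA of that domain, had 802 counts on TCP, 916 on GelMA and 702 on GelMA-PSS, with differences of -1.18 and -0.64. Cdkn1c, the cell cycle inhibitor of the domain, differed by -0.49 and -0.75, Osbpl5 by -0.34 and -0.52, and Tssc4 by -0.26 and -0.46. Cd81 differed by 0.30 and 0.18, Nap1l4 by 0.20 and 0.20, Tspan32 by 0.23 and -0.18, and Slc22a18 by -0.05 and 0.08.

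**Figure D3:**
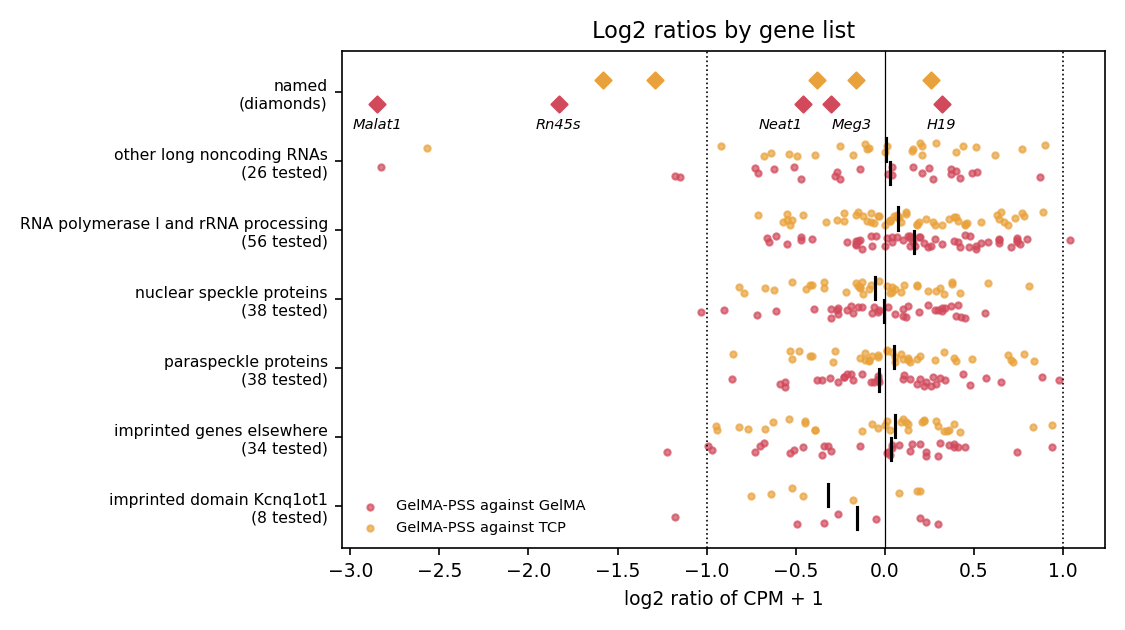
Log2 ratio of CPM + 1 (horizontal axis) of GelMA-PSS against GelMA and against TCP for 6 gene lists (rows); each dot is a gene, black bars are medians, dotted lines mark 2-fold, and diamonds show Malat1, Rn45s, Neat1, Meg3 and H19. The list medians lie between -0.32 and 0.17. Single genes within the lists also pass the dotted lines, among them Mhrt at -1.15 and -2.57 and Polr2k at 1.04 against GelMA. Malat1 and Rn45s, chosen with their values known, lie beyond -1 in both comparisons.

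The log2 ratios moved with transcript length across all genes, and this touches long and short RNAs alike. Over 13055 genes with an annotated length, Spearman's rho with length was -0.67 for GelMA-PSS against GelMA, -0.52 for GelMA-PSS against TCP and 0.21 between GelMA and TCP, a description across genes, which are not replicates. When genes were ranked by length into 10 equal bins, Malat1, Neat1 and Meg3 fell in the bin of the longest, whose median differences were -0.64, -0.48 and 0.14 in the same order, and of which 8.12% were lower than both controls by 2-fold. H19 fell in bin 4 from the shortest, with medians of 0.17, 0.13 and -0.06.

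After the fitted trend on length and GC content was subtracted, Malat1 was still beyond 2-fold, at -2.46 and -1.30 in the GelMA-PSS comparisons and at 1.19 between GelMA and TCP. Neat1 changed sign in the GelMA-PSS comparisons, to 0.89 and 0.76, and so did Meg3, to 0.78 and 0.38. The sign of these 2 genes on GelMA-PSS thus depended on the correction. It used 1 length per gene, 20771 bases for Neat1 and 14548 for Meg3, and shorter forms of both are annotated. Meg3 also had a CPM near 1, where the pseudocount of 1 shrinks a ratio. With a pseudocount of 0.1 its uncorrected differences were -0.58 against GelMA and -0.73 against TCP. H19 kept its sign at 0.20 and 0.18. Rn45s has no annotated length and could not be corrected. Kcnq1ot1, the longest RNA shown at 93092 bases, went from -1.18 and -0.64 to 1.26 and 1.01. The part of length, fragmentation or RNA quality in these differences was not tested.

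**Figure D4:**
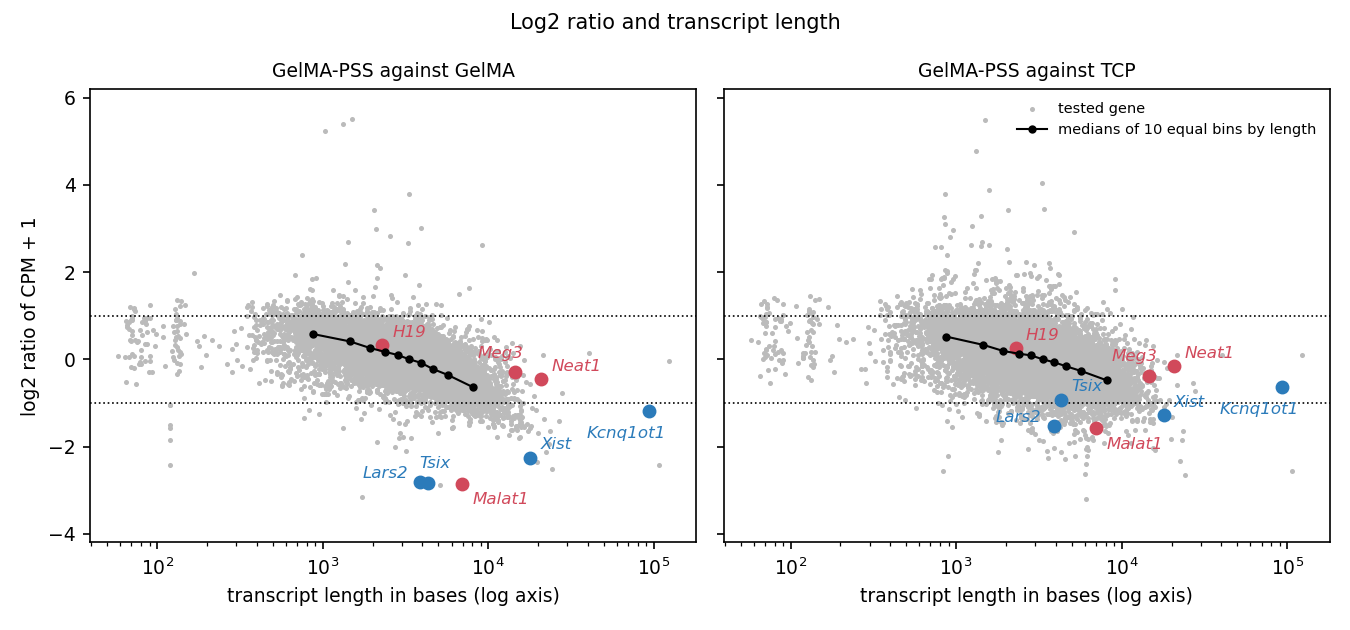
Log2 ratio of CPM + 1 (vertical axis) against transcript length in bases (horizontal axis, log scale) for GelMA-PSS against GelMA and against TCP; grey dots are tested genes, black points join the medians of 10 equal bins by length, red marks H19, Malat1, Meg3 and Neat1, and blue marks 4 other genes. Medians fall with length to -0.64 and -0.48 in the longest bin, Neat1 and Meg3 lie above them, and Malat1 lies below.

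The genes whose 3 values were most like those of each RNA were found by the Euclidean distance between centred log2(CPM + 1) values, over 3 libraries. For Malat1 the nearest was Lars2, the leucyl-tRNA synthetase of mitochondria, at a distance of 0.038. It had 52119 counts on TCP, 94536 on GelMA and 26713 on GelMA-PSS, and the counts of Malat1 per count of Lars2 were 1.30, 1.29 and 1.26. The second was 4930470H14Rik, a lincRNA on chromosome 17, at 0.323, with a CPM of 16.1, 55.1 and 5.28. Malat1, Lars2 and 4930470H14Rik were the only 3 of the 153 genes lower than both controls that were also 2-fold higher on GelMA than on TCP.

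For Rn45s the nearest was Plec, the linker protein plectin, at 0.089, with log2 differences of -1.79 against GelMA and -1.37 against TCP. The second was A630089N07Rik, at 0.123. Around Malat1 and Rn45s there was 1 other gene each within a distance of 0.1. Within the same distance lay 308 genes for Neat1, 637 for Meg3 and 1003 for H19. Few genes change as much as Malat1 and Rn45s, for which these genes were chosen. These numbers therefore follow from the size of the change, and nothing more is read from them. The nearest were Lepr and Cbfa2t2 for Neat1 (0.004 and 0.011), Hhex and Spag1 for Meg3 (0.004 and 0.007), and Tfpt and Hspd1 for H19 (0.000 and 0.002). With 3 libraries, such likeness does not set a gene apart.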

How the data were processed

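For each of 3 RNA-seq libraries, 1 per substrate, the authors deposited counts of reads by gene symbol, which were not normalized. The submitters' processing notes name TopHat, edgeR, mm10 and hg19 without roles or versions. The methods give 101 bp strand-specific paired-end reads and a TruSeq kit, while the labels name a SMARTER mRNA kit. The counting tool and its strand setting are not given in the sources used here. FPKM, the unit of the study's own comparison, was not used.

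Lines sharing a symbol were summed (23282 lines, 23238 symbols, 35 given more than once). CPM used TMM factors of 1.02, 1.04 and 0.943 (edgeR 4.0.16, R 4.3.3), and ratios used log2(CPM + 1). The threshold was 2-fold, and a CPM of 1 in at least 1 library was required. Positions and lengths are from GENCODE vM21 (GRCm38), with 22197 symbols matched directly and 662 through other names. The correction subtracted 2 successive loess fits (span 0.3, statsmodels 0.14.6) on length and GC content. Intervals are exact Poisson intervals (scipy 1.17.1). The calls were also run on simulated counts with known changes and counting error only. Those counts held no spread between cultures and no trend with length. They check the computation and not the calls made here. The members and lists were chosen with earlier results of these data known. Named genes are the 8 members, the 2 nearest patterns of each tested one, all tested genes of imprinted domains, and of each other list up to 3 genes past 2-fold against both controls, or else the 2 with the largest change against the nearer control. Position neighbours, structured RNAs, Xist, Tsix, Myh7 and Mrln were named after their values were seen. 10 alternatives were tried. The result of 1 neighbouring gene is not reported here.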

Additional observations from a re-analysis of the deposited data

How the results depend on the processing

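With 1 library per substrate, no library can be left out and the depth limits only counting error. No paired analysis was possible because each substrate has 1 library and the labels give no replicate numbers. The correction for length and GC content left 1 of the set's genes, Malat1, in place of 2 past 2-fold against GelMA, against TCP and against both, because Rn45s has no annotated length. No other alternative moved these counts. Malat1 ranged from -3.00 to -2.46 against GelMA and from -1.69 to -1.30 against TCP. H19 ranged from 0.17 to 0.32 and from 0.15 to 0.26, and Rn45s from -1.98 to -1.83 and from -1.40 to -1.29. Neat1 and Meg3 changed sign under the length and GC correction alone.

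Among all genes, 180 were higher and 153 lower than both controls. Without TMM, which shifted the median of all genes to -0.10 against GelMA, the numbers were 97 and 261, and without TMM and ribosomal RNA rows 95 and 266. They were 259 and 294 with a pseudocount of 0.1, 106 and 77 with a pseudocount of 5, 1064 and 946 at 1.5-fold, and 59 and 71 after the length and GC correction.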

Other observations

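Xist, the RNA that coats the inactive X chromosome, was in place 3 by likeness to Malat1, at a distance of 0.422. It had 49250 counts on TCP, 72616 on GelMA and 30183 on GelMA-PSS, with log2 differences of -2.25 against GelMA and -1.27 against TCP, and of -1.11 and -0.50 after the length and GC correction. Tsix, its antisense partner, had 2505, 7245 and 1881 counts, with differences of -2.83 and -0.92 (corrected -2.74 and -0.86). There were 19.7 counts of Xist per count of Tsix on TCP, 10.0 on GelMA and 16.1 on GelMA-PSS, and reads of the overlapping pair cannot be told apart unless strand was used in counting.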
